A study of Homo sapiens with 12 samples.

Results

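The genes whose RNA moved the same way in both engineered lines of HepG2 cells, one with thiosulfate sulfurtransferase (TST) silenced and one with TST overexpressed, were compared with the unmodified cells. HepG2 is a human hepatocellular carcinoma line. The comparison took all 12 of the 12 libraries in 1 fit, 4 of wild-type cells (WT), 4 of cells carrying an shRNA against TST (shTST) and 4 of cells carrying extra TST (overTST), and set the mean of both lines against WT. A gene was counted as a shared response when its adjusted p in that contrast was 0.05 or less and its change had the same sign in each line. By the methods of the study, lines were made with lentivirus and selected with Blasticidin, and the added TST was a codon-optimized coding sequence in a vector with a CMV promoter. All cells were in medium with 0.4 mM glycine for 24 h. No library of cells carrying an empty vector or a control shRNA was analysed here, so a response to TST, to transduction and to selection cannot be told apart, and the labels do not say whether a line was 1 clone or a pool.

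TST is a mitochondrial enzyme that passes a sulfur atom from thiosulfate to cyanide and so makes thiocyanate, which is far less toxic. Cyanide binds cytochrome c oxidase, the last enzyme of the respiratory chain, and sulfide is handled by neighbouring enzymes of the same organelle. Cells that sense a shortage of amino acids raise the translation of the transcription factor ATF4, which switches on amino acid synthesis, amino acid transporters and the enzymes that load tRNAs.

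Libraries held between 27527854 and 45120508 counts in WT and shTST, and between 22911380 and 27414142 in overTST, and the totals of overTST were below those of WT (two-sided exact permutation test, p = 0.0286), while shTST and WT overlapped (exact p = 0.286). All 14 hepatocyte markers passed the filter on low counts in these cells, and their summed level was 27077 to 31012 CPM (reads of a gene per 1e6 reads of the library) in WT, 29283 to 33418 in shTST and 24428 to 29306 in overTST. Of markers of other cell types, the fibroblast genes LUM and THY1 and the endothelial gene KDR were at 0 counts in every library, and the leukocyte gene PTPRC was at most 0.035 CPM. Others were present, LYZ at 1373 to 1689 CPM, PDGFRB at 14.4 to 23.8, CD14 at 3.91 to 6.28 and PECAM1 at 1.46 to 3.36. The leukocyte sum, nearly all LYZ, was 1618 to 1697 CPM in WT, 1380 to 1527 in shTST and 1431 to 1688 in overTST (8 libraries against 4, exact permutation p = 0.0202), and its part in the results was not tested. WT replicate 2 was the deepest library (45120508 counts). Replicates of a group are separate samples by their labels, which do not say whether they were separate cultures, so p-values measure the spread between these samples only.

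TST itself, on chromosome 22 from 37010859 to 37020183 (GRCh38), went in opposite directions in the lines. After scaling to the normalized library size it was at 47.2, 47.5, 52.8 and 48.5 CPM in WT. It was at 33.0, 33.6, 36.6 and 33.5 CPM in shTST, all below WT, and at 51.8, 56.0, 61.6 and 62.1 CPM in overTST, of which 1 lay within the WT range. The log2 fold change was −0.52 (SE 0.060, edgeR adjusted p = 3.7e-06) in shTST and 0.24 (SE 0.059, edgeR adjusted p = 0.0024) in overTST. The overTST call was lost after a correction for gene length (log2 fold change 0.095, edgeR adjusted p = 0.178), and codon-optimized transcripts need not be counted as TST. An exon of TST overlaps MPST on the other strand. In the mean of both lines TST was at −0.14 (edgeR adjusted p = 0.047), a value that averages opposite signs and is no shared response, and it was −0.22 after the length correction.

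Of 14883 genes tested, 3906 (26.2%) differed between the mean of both lines and WT, 1706 higher (11.5%) and 2200 lower (14.8%). The sign was the same in each line for 3730 of them (25.1%), with 1647 higher (11.1%) and 2083 lower (14%). Since both lines were set against the same 4 WT libraries, an equal sign is partly built into the comparison. With upper-quartile normalization the split turned to 2085 higher and 1731 lower, so that 54.6% of the shared genes were higher in place of 44.2%. A stricter count, genes called in each line separately with the same sign, gave 1100 genes (7.39%), 473 higher (3.18%) and 627 lower (4.21%). Leaving out WT replicate 2 reduced these to 298 and 382. Against WT alone, 2240 genes were called in shTST (15.1%), 929 higher (6.24%) and 1311 lower (8.81%), and 5211 in overTST (35.0%), 2430 higher (16.3%) and 2781 lower (18.7%). A further 101 genes (0.679%) were called in each line with opposite signs.

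Most shared changes were small. A pooled change of at least 1.5-fold was seen for 228 of the shared genes (1.53%), 126 higher (0.847%) and 102 lower (0.685%), and the lower ones numbered 59 without WT replicate 2. Every engineered library lay above every WT library for 505 genes (3.39%) and below for 671 (4.51%). Of these, 483 (3.25%) and 661 (4.44%) were also called with the same sign in each line. The median log2 fold change of the shared higher genes was 0.17 in shTST and 0.28 in overTST, and that of the shared lower genes −0.18 and −0.32. The change was larger in overTST for 74.4% of the shared genes, against 62.3% of all genes tested. The lines themselves differed (shTST minus overTST, edgeR) in 1815 of the 3730 shared genes, or 48.7%, where 33.0% of all genes did, and overTST was the further from WT in 1549 of those 1815. Shared genes were picked on the mean of both lines with only an equal sign required, so a large change in overTST alone could bring a gene in. They also had a higher median log2 CPM (5.26 against 4.02). These shares are thus partly set by the choice of genes, and the part was not tested.

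SLC6A14, a sodium- and chloride-driven importer of neutral and cationic amino acids, fell in both lines. It was at 19.9, 23.4, 21.9 and 20.5 CPM in WT, at 13.1, 13.3, 12.4 and 13.7 in shTST, and at 8.96, 5.80, 8.80 and 7.09 in overTST. The 3 groups did not overlap, and each line was below WT with overTST lowest. The pooled log2 fold change was −1.09 (SE 0.078, edgeR adjusted p = 1.7e-09), and shTST and overTST differed by 0.77 (95% interval 0.57 to 0.97, edgeR adjusted p = 5.3e-06). SLC7A11, the cystine importer that feeds glutathione synthesis, was at 30.5, 35.6, 27.8 and 29 CPM in WT, at 19.4, 18.5, 15.9 and 16.7 in shTST and at 17.3, 16.1, 23.9 and 21.0 in overTST. Both lines were below all WT libraries, which the rule for naming SLC7A11 required, and overlapped each other (pooled log2 fold change −0.73, SE 0.081, edgeR adjusted p = 5.2e-07).

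Many amino acid transporters fell. Of 26 tested, 16 were shared lower (61.5%), 10 of them called in each line, 2 were shared higher and 8 were not called, with a median pooled log2 fold change of −0.22, against 14% lower and a median of −0.00093 over all genes. Beside SLC6A14 and SLC7A11 the lower members, read off after their values were seen, included the glycine transporter SLC6A9 (−0.38), the lysosomal and plasma membrane transporter SLC36A1 (−0.38), the cationic transporters SLC7A1 (−0.30) and SLC7A2 (−0.32), and the glutamine transporters SLC1A5 (−0.27), SLC38A1 (−0.24) and SLC38A2 (−0.23). The higher members were SLC6A12 (0.32), a carrier of betaine and GABA, and SLC38A5 (0.12). Of the cytosolic aminoacyl-tRNA synthetases, which join each amino acid to its tRNA, 14 of 20 were shared lower (70.0%) and 0 shared higher, with a median of −0.16. With upper-quartile normalization 2 synthetases were shared higher beside 14 lower, and by edgeR 1 was at an unadjusted p under 0.05, against 0 shared higher by DESeq2 and limma-voom.

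MARS1, which loads methionine, was at 186, 206, 187 and 205 CPM in WT. It was at 142, 140, 144 and 150 CPM in shTST and at 152, 149, 156 and 142 CPM in overTST, so both lines lay below every WT library and overlapped each other. The pooled log2 fold change was −0.42 (SE 0.040, edgeR adjusted p = 8.5e-08). An exon of MARS1 overlaps DDIT3 on the other strand, and the use of strand in counting is not given in the sources used here. IARS1, which loads isoleucine, ranged from 177 to 190 CPM in WT, 156 to 167 in shTST and 125 to 146 in overTST, without overlap (pooled log2 fold change −0.33, SE 0.040, edgeR adjusted p = 2.6e-06).

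ASNS, which makes asparagine from aspartate and is a much-used marker of the ATF4 response, was at 85.1, 87.0, 75.8 and 87.1 CPM in WT. It was at 50.2, 56.4, 46.2 and 52.6 CPM in shTST and at 56.6, 59.4, 76.6 and 71.9 CPM in overTST. All shTST libraries were below WT, while 1 overTST library lay just above the lowest WT library. The pooled log2 fold change was −0.52 (SE 0.064, edgeR adjusted p = 1.9e-06), and the fall was deeper in shTST (−0.71) than in overTST (−0.34), a difference of −0.36 (95% interval −0.51 to −0.21, edgeR adjusted p = 0.00068). MTHFD2, a mitochondrial enzyme of one-carbon metabolism, fell alike in both, by 0.33 on the log2 scale in shTST and by 0.38 in overTST (pooled edgeR adjusted p = 4.1e-06).

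The whole list of ATF4 response genes did not go one way. Of 30 tested, 8 were shared lower (26.7%) and 4 shared higher (13.3%), against 14% and 11.1% over all genes. The higher share was thus near that of all genes, and the median was −0.031. The lower ones besides ASNS and MTHFD2 were VLDLR (−0.59), XPOT (−0.20), and the serine synthesis and usage genes PHGDH (−0.21), SHMT2 (−0.20), PSAT1 (−0.15) and PCK2 (−0.15), the last of which makes phosphoenolpyruvate. The higher ones were stress regulators, DDIT3 (0.66), NUPR1 (0.50), SESN2 (0.17) and ATF5 (0.14). These members were named after their values were seen. DDIT3 did not pass in shTST alone (log2 fold change 0.31, edgeR adjusted p = 0.166) and was at 1.01 in overTST, and it is the gene that overlaps MARS1.

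ATF4 pairs with C/EBP proteins on a composite element, TGATGNAA, which was searched on both strands in the 250 bases before the RefSeq start of each gene (GRCh38.p14). Of 27305 such windows, 870 (3.19%) held it, and of 10736 windows of genes tested here, 151 (1.41%) did. Among members with a window, 3 of 23 tested ATF4 response genes, 2 of 16 synthetases and 0 of 21 amino acid transporters held it. The windows of MARS1, MTHFD2 and SLC6A14, also lower, did not. Those of ATF3 and HERPUD1, ATF4 response genes outside the shared response, held it. The windows of 3 lower genes that held it, ASNS and the synthetase genes AARS1 and IARS1, are printed as examples. They run 5′ to 3′ on the gene's strand, with the element in capitals. In AARS1 and IARS1 it lies on the other strand and so reads TTGCATCA. In IARS1 a second run of capitals is an E-box, CACGTG. The E-box was in 6.49% of all windows and in 8.89% of those of genes tested. The windows are chr7:97872409-97872658 for ASNS, chr16:70289507-70289756 for AARS1 and chr9:92293698-92293947 for IARS1, all on the minus strand.
ASNS: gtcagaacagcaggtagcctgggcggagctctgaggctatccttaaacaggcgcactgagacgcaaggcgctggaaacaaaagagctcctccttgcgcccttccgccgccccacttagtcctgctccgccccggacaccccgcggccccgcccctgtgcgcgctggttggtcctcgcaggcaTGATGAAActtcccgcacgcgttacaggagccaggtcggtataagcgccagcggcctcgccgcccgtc
AARS1: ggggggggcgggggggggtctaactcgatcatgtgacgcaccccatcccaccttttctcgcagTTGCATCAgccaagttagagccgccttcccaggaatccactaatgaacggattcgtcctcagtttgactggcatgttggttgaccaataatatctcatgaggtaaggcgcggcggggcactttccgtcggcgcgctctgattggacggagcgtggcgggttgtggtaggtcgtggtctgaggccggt
IARS1: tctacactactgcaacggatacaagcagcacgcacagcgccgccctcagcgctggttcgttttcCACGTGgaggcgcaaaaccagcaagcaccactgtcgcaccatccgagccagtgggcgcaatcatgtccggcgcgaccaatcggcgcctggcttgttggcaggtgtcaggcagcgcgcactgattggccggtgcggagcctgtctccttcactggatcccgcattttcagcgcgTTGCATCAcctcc
The element begins at position −68 in ASNS, −187 in AARS1 and −13 in IARS1, counted from the start. AARS1, picked for this match, was shared lower as well (pooled log2 fold change −0.24). A match is a string of letters and no measure of binding. Promoters were matched to 72.1% of the genes tested, too few for a comparison of shares between higher and lower genes.

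**Figure D1:**
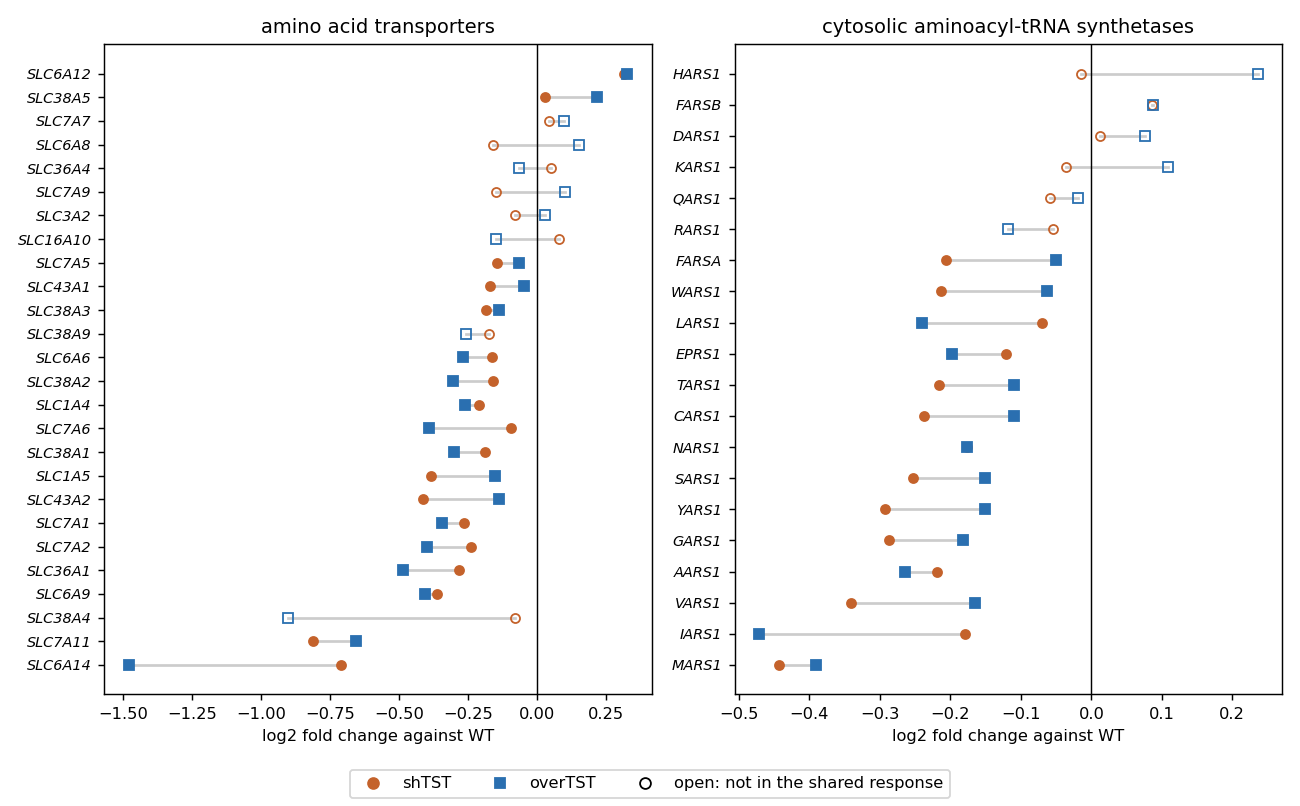
Log2 fold change against WT of each tested amino acid transporter (left) and cytosolic aminoacyl-tRNA synthetase (right), with circles for shTST, squares for overTST and open symbols for genes outside the shared response. Most points lie left of 0, with SLC6A14 lowest by pooled change among the transporters at −0.71 and −1.48, and MARS1 lowest by pooled change among the synthetases at −0.44 and −0.39.

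LRP10, a member of the LDL receptor family that cycles between the Golgi, endosomes and the cell surface, fell by the same amount in both lines. It was at 83.8, 98.1, 89.3 and 90.1 CPM in WT, at 57.0, 63.3, 57.5 and 60.1 in shTST, and at 61.5, 61.9, 60.4 and 56.4 in overTST. All 8 engineered libraries were below all WT libraries, and the lines overlapped. The pooled log2 fold change was −0.60 (SE 0.045, edgeR adjusted p = 2.8e-09), and shTST minus overTST was −0.01 (95% interval −0.12 to 0.09). Of 13 tested LDL receptor related genes, 8 were shared lower (61.5%) and 0 shared higher, against 14% and 11.1% over all genes. The median was −0.30. LRP1, the large endocytic receptor of hepatocytes, was at 513 to 580 CPM in WT, 407 to 479 in shTST and 303 to 354 in overTST, in 3 ranges that did not overlap. VLDLR (−0.59), SORL1 (−0.38), LRP4 (−0.33), LRP6 (−0.30) and LRP5 (−0.25), listed after their values were seen, were also among the 8.

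The genes of this family are long, with a median exonic length of 8724 bases against 4421 over all genes tested. After the length correction 8 of them were shared lower, with a median of −0.21. NPC1, which exports cholesterol from lysosomes, also fell alike, from 72.9 to 87.5 CPM in WT to 53.5 to 57.1 in shTST and 50.0 to 55.1 in overTST (pooled log2 fold change −0.53, SE 0.046, edgeR adjusted p = 2.1e-08), and an exon of it overlaps RMC1 on the other strand. The sterol synthesis gene CYP51A1 fell by 0.25 on the log2 scale in shTST and by 0.79 in overTST. Of 27 genes of cholesterol synthesis and uptake, 8 were shared lower (29.6%) and 3 shared higher (11.1%), with a median of −0.033. The shares over all genes were 14% and 11.1%, so the higher ones were at that share. The lower ones numbered 6 after the length correction, and the higher ones 1 without WT replicate 2.

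CIRBP, an RNA-binding protein induced by mild cold and several stresses, rose alike in both lines. It was at 138, 122, 130 and 123 CPM in WT. It was at 175, 174, 182 and 184 CPM in shTST and at 174, 189, 194 and 186 CPM in overTST. Every engineered library was above every WT library, and the lines overlapped. The pooled log2 fold change was 0.50 (SE 0.042, edgeR adjusted p = 1.3e-08), shTST minus overTST was −0.06 (95% interval −0.15 to 0.04), and an exon of CIRBP overlaps CIRBP-AS1 on the other strand. RBM3, its cold-induced relative, was higher by 0.20 (SE 0.052, edgeR adjusted p = 0.0051), with WT at 115 to 153 CPM and the engineered libraries at 149 to 170, so that the groups touched, and its change was 0.13 without WT replicate 2. None of the 4 motifs searched, the mild-cold response element TCCCCGCC among them, was in the windows of CIRBP or RBM3. That element was in 7.7% of all windows and in 12.7% of those of genes tested.

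Splicing genes of the SR family and their kinases were split, with 4 of 18 shared higher (22.2%) and 3 shared lower (16.7%). The shares over all genes were 11.1% and 14%, and the median of the list was 0.062. The SR proteins SRSF5 (pooled log2 fold change 0.23, edgeR adjusted p = 0.00047) and SRSF2 (0.22, edgeR adjusted p = 0.00094) rose alike in both lines. After the length correction 6 members were shared higher with 0 shared lower, and 2 were shared higher when WT replicate 1 was left out. UPF3B, a factor of nonsense-mediated mRNA decay, was at 8.61, 8.85, 8.56 and 9.08 CPM in WT, at 13.5, 12.5, 15 and 11.6 in shTST and at 12.2, 16.6, 15.5 and 15.1 in overTST. Both lines were above WT throughout, which the rule for naming UPF3B required (pooled log2 fold change 0.67, SE 0.082, edgeR adjusted p = 2.2e-06).

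PARP2, an enzyme that marks broken DNA with poly(ADP-ribose), fell slightly. It was at 63.0, 56.3, 58.8 and 60.0 CPM in WT, at 54.3, 56.1, 51.5 and 48.5 in shTST and at 51.3, 43.0, 44.1 and 41.4 in overTST. The highest shTST library (56.1 CPM) lay just under the lowest WT library (56.3), so the groups were apart by little. The pooled log2 fold change was −0.29 (SE 0.052, edgeR adjusted p = 0.00020), with −0.18 in shTST (edgeR adjusted p = 0.048) and −0.40 in overTST, which differed (0.22, edgeR adjusted p = 0.0074). Its exons overlap AL355075.4 and AL355075.1 on the other strand. Of 26 genes of poly(ADP-ribose) polymerases and single-strand break repair, 4 were shared lower (15.4%) and 1 shared higher (3.85%), with a median of −0.051, against 14% and 11.1% over all genes. The vault-associated PARP4 was among the lower ones (−0.33, SE 0.055, edgeR adjusted p = 7.1e-05).

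**Figure D2:**
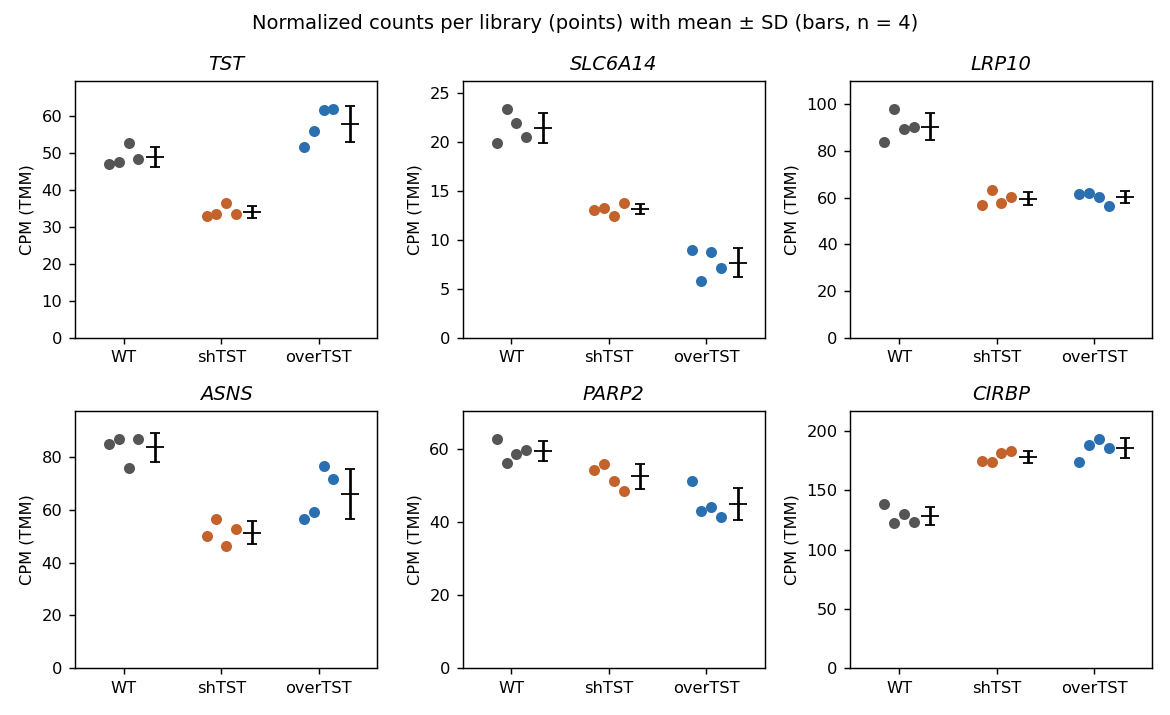
CPM scaled by TMM (y axis, from 0) of TST and of SLC6A14, LRP10, ASNS, PARP2 and CIRBP in each of the 12 libraries, with 1 point per library and the mean ± SD of each group of 4 in black. TST moves down in shTST and up in overTST, LRP10 and CIRBP stand at like levels in both lines, and SLC6A14 and PARP2 are lowest in overTST.

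Several targets of the tumour suppressor p53 rose. Of 30 tested, 11 were shared higher (36.7%) and 2 shared lower, with a median of 0.14, against 11.1% higher over all genes. MDM2, the ubiquitin ligase that degrades p53, was at 93.0, 86.1, 87.8 and 93.3 CPM in WT, at 120, 114, 116 and 115 in shTST and at 121, 105, 118 and 106 in overTST, above WT throughout (pooled log2 fold change 0.35, SE 0.044, edgeR adjusted p = 3.6e-06), and its exons overlap those of AC025423.2 and 2 other genes. CDKN1A, the inhibitor of cyclin-dependent kinases, was at 56.8 to 71.3 CPM in WT, 78.0 to 83.9 in shTST and 83.5 to 88.6 in overTST (pooled log2 fold change 0.34, edgeR adjusted p = 1.3e-05). The other higher members, seen afterwards, include BTG2 (0.50), POLH (0.33), GADD45A (0.29) and BBC3 (0.23).

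A part of the DNA replication genes rose, with 13 of 39 shared higher (33.3%) and 2 shared lower and a median of 0.087. Of the higher ones, 5 were called in each line. Without WT replicate 4 the higher ones numbered 8, and without WT replicate 2 the lower ones numbered 0. PCNA, the sliding clamp of DNA polymerases, was at 312 to 361 CPM in WT, 416 to 431 in shTST and 395 to 428 in overTST (pooled log2 fold change 0.29, SE 0.041, edgeR adjusted p = 1.3e-05), and UHRF1, which maintains DNA methylation, rose by 0.47 in shTST and 0.18 in overTST. Genes of mitosis were split, with 6 of 34 shared higher (17.6%) and 4 shared lower (11.8%), against 11.1% and 14% over all genes. The higher ones numbered 1 without WT replicate 2 and 3 after the length correction. MKI67, the antigen of dividing cells, and ECT2, a factor of cytokinesis, were lower in the pooled contrast (−0.30 and −0.31), with −0.11 and −0.07 in shTST (edgeR adjusted p = 0.24 and 0.54) and −0.48 and −0.54 in overTST. After the length correction MKI67 was at −0.19.

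Most cytosolic ribosomal protein genes were shared higher, at 66 of 76 (86.8%, against 11.1% over all genes), with 0 shared lower and a median of 0.19. Only 18 of them were called in each line. Without WT replicate 2 the shared higher ones numbered 50. The median was 0.10 in shTST and 0.28 in overTST, and 59 of the 76 differed between the lines. RPL11 was at 465, 448, 502 and 517 CPM in WT, at 595, 524, 578 and 549 in shTST and at 629, 729, 688 and 702 in overTST, in 3 ranges that did not overlap (pooled log2 fold change 0.36, SE 0.047, edgeR adjusted p = 4.7e-06). RPL23 behaved likewise (0.34, SE 0.047, edgeR adjusted p = 9.0e-06), and its exons overlap SNORA21 on the same strand. No ribosomal protein was shared lower, and no LDL receptor related or aryl hydrocarbon receptor gene shared higher, at an unadjusted edgeR p under 0.05 or by DESeq2 or limma-voom. Ribosomal protein genes have many processed copies, among which reads can be split. Of 35 nucleolar genes of ribosome biogenesis, 15 were shared higher (42.9%) and 3 shared lower, among them NOP58 (0.27) and, on the lower side, HEATR1 (−0.27).

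Nuclear genes of the respiratory chain, the pathway that cyanide blocks, were shared higher in 42 of 75 cases (56.0%) and shared lower in 1, with a median of 0.18. Only 10 of the higher ones were called in each line. UQCRB of complex III was at 79.7 to 94.8 CPM in WT, 101 to 109 in shTST and 112 to 122 in overTST (pooled log2 fold change 0.31, SE 0.046, edgeR adjusted p = 2.4e-05). ATP5PF of the ATP synthase rose by 0.29 (SE 0.044, edgeR adjusted p = 3.2e-05). As with the ribosome, overTST was further from WT, with medians of 0.09 in shTST and 0.28 in overTST. The 13 mitochondrially encoded protein genes held 0 shared members by edgeR, also at an unadjusted p under 0.05 and by DESeq2 and limma-voom, with medians of −0.20 in shTST and 0.42 in overTST, and 5 without WT replicate 4, which had the highest mitochondrial share of counts in WT (12%). Of 22 genes of cyanide and sulfide metabolism, 2 were shared higher (9.09%) and 1 shared lower (4.55%), below the 11.1% and 14% over all genes, with a median of −0.040. Without WT replicate 2 these were 1 and 0, and over all alternatives 1 to 2 and 0 to 3. These were the reductant TXN (0.26), GCSH of the glycine cleavage system (0.13, seen afterwards) and the transaminase GOT1 (−0.21). TXN was at 0.16 after the length correction. It did not pass in shTST alone (0.13, edgeR adjusted p = 0.097) nor GOT1 in overTST alone (−0.01, edgeR adjusted p = 0.92).

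SLC2A1, the glucose importer GLUT1, fell alike in both lines. It was at 919, 1197, 914 and 1019 CPM in WT, at 602, 758, 570 and 681 in shTST and at 686, 681, 684 and 609 in overTST. Both lines were below all WT libraries and overlapped (pooled log2 fold change −0.62, SE 0.065, edgeR adjusted p = 3.0e-07). Of 37 glycolysis and hypoxia genes, 7 were shared lower (18.9%, against 14% over all genes) and 0 shared higher by edgeR, with a median of −0.033. At an unadjusted p under 0.05 there were 2 higher, and 1 was shared higher by DESeq2 and by limma-voom. The other 6, among them the named histone demethylase KDM3A (−0.34), were PFKFB3 (−0.44), PFKFB4 (−0.42), NDRG1 (−0.40), EGLN1 (−0.23) and HK2 (−0.22), and the list's other 30 members did not pass in the same direction in both lines.

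Antioxidant genes under NRF2 fell more often than they rose, with 13 of 33 shared lower (39.4%) and 4 shared higher and a median of −0.047. Apart from SLC7A11, the bile canalicular exporter ABCC2 (−0.38, SE 0.049, edgeR adjusted p = 4.1e-06) was among them, and the higher ones, seen afterwards, included GSTA1 (0.45), TXN and HMOX1 (0.20). Of only 8 genes of the aryl hydrocarbon receptor pathway, 2 were shared lower (25%) and 0 higher, against 14% and 11.1% over all genes (median −0.098). CYP1A1, its classic target, was at 5.60, 9.90, 5.37 and 6.56 CPM in WT and at 2.54, 2.65, 2.26 and 2.19 in shTST. It was at 1.72, 1.91, 6.36 and 4.41 CPM in overTST, where 1 library reached the WT range (pooled log2 fold change −1.24, SE 0.208, edgeR adjusted p = 8.6e-05). NQO1 was at −0.11 (edgeR adjusted p = 0.036, and up to 0.11 over the alternatives), with −0.04 in overTST.

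In the unfolded protein response list 11 of 26 were shared higher (42.3%) and 4 shared lower (15.4%), against 11.1% and 14% over all genes. The lower share was thus near that of all genes, and 7 were higher without WT replicate 1. Called in each line were 2 of the higher and 2 of the lower ones. The 2 named by p were lower, SEC24D of the transport vesicle coat (−0.41) and SEL1L of the degradation machinery (−0.31), while chaperones such as CALR (0.30) and HSP90B1 (0.18), seen afterwards, were higher. Of 32 genes of the NF-kB and immediate-early response, 8 were shared lower (25%), MYC (−0.28) and NFKB1 (−0.29) among them, and 1, JUN (0.33), shared higher (median −0.12). Without WT replicate 2 these became 4 lower and 6 higher. Of 26 interferon response genes 5 were shared lower (19.2%) and 1 shared higher (3.85%), against 14% and 11.1% over all genes (median 0.014). ADAR (−0.26) and TRIM25 (−0.27) were among the lower ones. Of 33 genes of lysosome and autophagy 6 were shared lower (18.2%) and 2 higher (6.06%), against 14% and 11.1% over all genes (median −0.024), with NPC1 and ATG2A (−0.36) named by p.

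Genes of the extracellular matrix were lower or outside the shared response. Of 24 tested, 7 were shared lower (29.2%, against 14% over all genes), 2 of them called in each line. By edgeR, DESeq2 and limma-voom 0 were shared higher, though 2 were higher at an unadjusted p under 0.05. After the length correction 1 was shared higher. A further 4 were called in the pooled contrast with opposite signs in the lines. The median was 0.014 in shTST and −0.34 in overTST, and −0.16 pooled. HSPG2, the basement membrane proteoglycan perlecan, was at 161, 179, 153 and 153 CPM in WT, at 108, 136, 120 and 127 in shTST and at 89.8, 98.3, 76.7 and 68.0 in overTST, in 3 ranges that did not overlap (pooled log2 fold change −0.68, SE 0.067, edgeR adjusted p = 1.4e-07). That both lines lay below WT was required by the rule for naming HSPG2. FRAS1 and FREM1, partners in the same matrix complex, moved chiefly in overTST, at −0.91 and −1.03 on the log2 scale, against −0.13 (edgeR adjusted p = 0.10) and −0.27 in shTST. PDGFRB, a receptor listed as a fibroblast marker, fell by 0.41 (SE 0.061, edgeR adjusted p = 2.0e-05), and it made up nearly all of the fibroblast marker sum, which was 22.3 to 25.5 CPM in WT, 17.3 to 20.2 in shTST and 15.6 to 17.2 in overTST.

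Some products that hepatocytes secrete were higher, with 11 of 41 shared higher (26.8%, against 11.1% over all genes) and 1 shared lower. The median was 0.078. The higher ones numbered 7 with DESeq2, 6 with limma-voom and 4 without WT replicate 2. Of the 14 hepatocyte markers, 5 were shared higher and 1 lower (median 0.014), and 0 were higher without WT replicate 2 or with limma-voom. ALB was at 5127 to 6234 CPM in WT, 6430 to 8342 in shTST and 5250 to 7649 in overTST (pooled log2 fold change 0.26, edgeR adjusted p = 0.016, lost with DESeq2, with limma-voom and without WT replicate 2 or 4). APOB, the protein of very low density lipoprotein, went down instead, from 7272 to 8281 CPM in WT to 6543 to 7134 in shTST and 4925 to 6011 in overTST (−0.37, SE 0.051, edgeR adjusted p = 8.7e-06). The acute-phase gene ORM2 was higher by 0.28 (edgeR adjusted p = 0.00011), and by 0.17 after the length correction. Of the other marker lists, LYZ made up nearly all of the leukocyte sum and was at −0.12 (edgeR adjusted p = 0.049, and up to 0.13 over the alternatives), and the endothelial marker CDH5, at 0.725 CPM or less in every library, was at −1.11 (edgeR adjusted p = 0.012, lost without WT replicate 2). The other endothelial marker tested, PECAM1, was at 0.09 (edgeR adjusted p = 0.64), with −0.41 in shTST and 0.60 in overTST, and the endothelial sum was 2.56 to 3.32 CPM in WT, 1.91 to 2.24 in shTST and 3.28 to 3.79 in overTST.

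**Figure D3:**
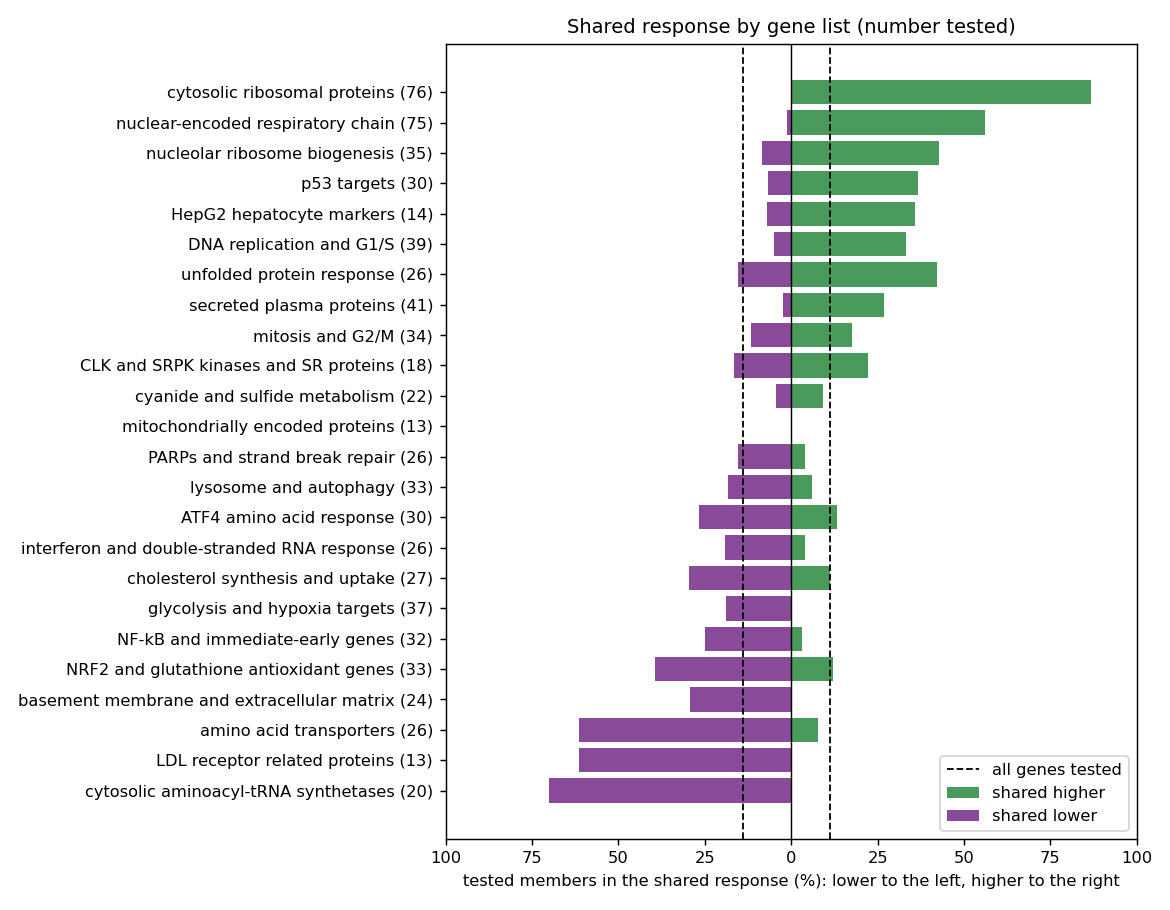
Share of the tested members of each gene list in the shared response (x axis, percent), with higher genes to the right and lower genes to the left, and dashed lines at the shares over all genes tested, 11.1% and 14%. Ribosomal proteins reach 86.8% higher, and tRNA synthetases, LDL receptor related genes and amino acid transporters reach 61.5% to 70.0% lower.

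The 14 largest increases among genes with no overlap between engineered and WT libraries, and an average log2 CPM of 1 or more, were 1.51-fold to 1.88-fold in the pooled contrast. Of these, 7 were protein-coding. PLA2G2A, a secreted phospholipase, was at 3.44, 4.57, 4.31 and 2.88 CPM in WT, at 5.62, 6.50, 6.64 and 6.50 in shTST and at 6.68, 8.18, 7.50 and 6.73 in overTST (pooled log2 fold change 0.82, SE 0.110, edgeR adjusted p = 6.0e-06). The secreted protein ISM1 was at 6.24, 7.18, 6.72 and 5.24 CPM in WT, at 12.3, 13.7, 11.9 and 12.9 in shTST and at 10.6, 11.4, 8.09 and 9.91 in overTST (0.82, SE 0.092, edgeR adjusted p = 6.6e-07). PLA2G2A was thus highest in overTST and ISM1 in shTST, and the ISM1 difference between the lines passed (0.35, edgeR adjusted p = 0.0098) whereas that of PLA2G2A did not (−0.20, 95% interval −0.44 to 0.04). The plasma proteins KNG1, the kinin precursor (0.71), and APOA4 (0.64), with IQCC (0.61) and NPIPB3 (0.75), which belongs to a family of near-identical copies and is uncertain, complete the coding ones with UPF3B.

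The non-coding increases were the long non-coding genes AC145207.5 (0.91), AC093297.2 (0.82), AL035071.1 (0.65) and EMSY-DT (0.63), the intronic AL161891.1 (0.74), AC022400.7 (0.60), whose transcript type is unsettled in the annotation, and MT-TN (0.69), the mitochondrial tRNA of asparagine. AC145207.5, at chromosome 17 from 81878425 to 81881106, was at 4.26 to 5.54 CPM in WT, 7.41 to 9.86 in shTST and 8.14 to 11 in overTST, and it overlaps AC145207.6 on the other strand. MT-TN, of 73 bases, was at 290, 185, 282 and 252 CPM in WT, at 410, 396, 303 and 329 in shTST and at 569, 434, 348 and 491 in overTST.

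The 14 largest decreases were all of protein-coding genes, at 0.466 to 0.630 of the WT level. MAB21L3 was at 2.89, 4.15, 2.28 and 2.79 CPM in WT, at 1.65, 1.37, 0.754 and 1.63 in shTST and at 1.49, 1.52, 1.78 and 1.32 in overTST, and both lines lay below WT, as the rule for these 14 required (pooled log2 fold change −1.10, SE 0.174, edgeR adjusted p = 4.6e-05). CEMIP, which breaks down hyaluronan, was at 53, 64.5, 51.4 and 52.4 CPM in WT, at 33.8, 38.5, 35.9 and 39.3 in shTST and at 31.1, 33.1, 33.4 and 28.4 in overTST (−0.70, SE 0.059, edgeR adjusted p = 1.3e-08). Other surface and signalling genes among the 14 were the receptor ROR1 (−0.91), the CD47 receptor SIRPA (−0.67), the adhesion protein HEPACAM (−0.71), the phospholipid flippase ATP10A (−0.68), the calcium channel ITPR1 (−0.71), the phosphatase subunit PPP2R2C (−0.87) and the kinase HUNK (−0.67). The ubiquitin ligases TRIM2 (−0.77) and SHPRH (−0.72) complete the list with SLC6A14, SLC7A11 and HSPG2.

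**Figure D4:**
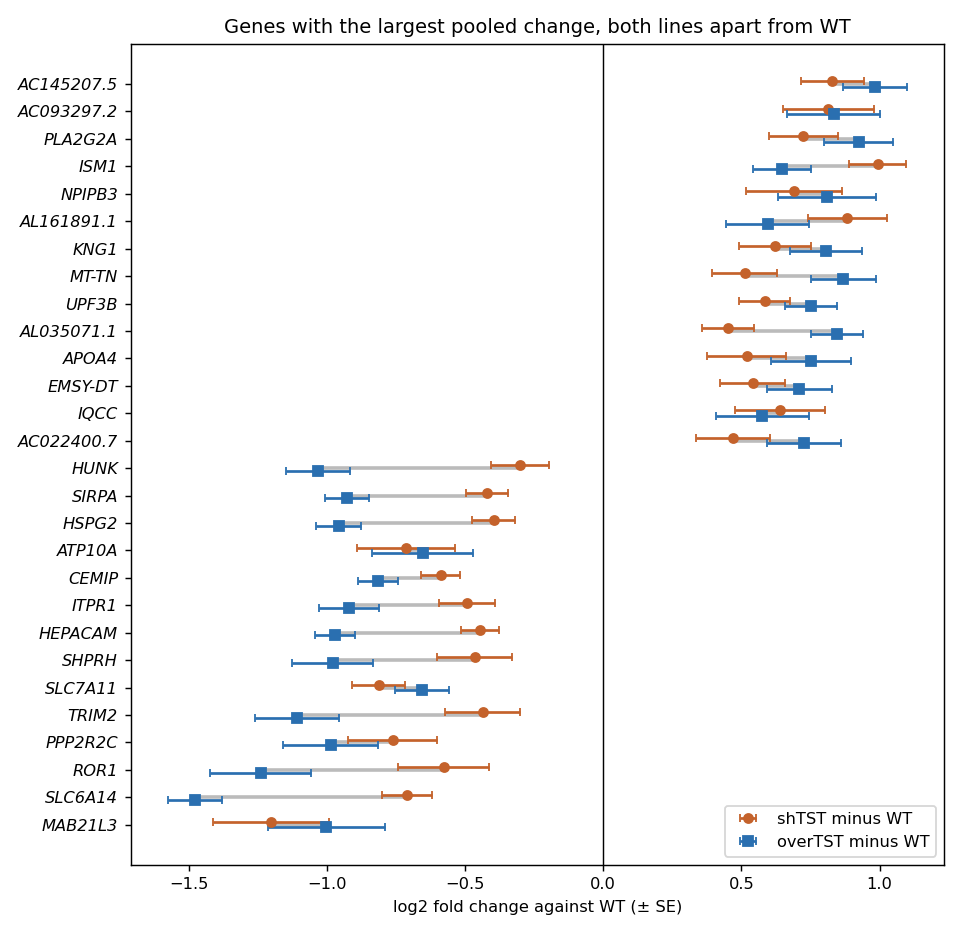
Log2 fold change against WT (x axis, ± SE) of the 14 increases and 14 decreases that were largest in the pooled contrast, with circles for shTST and squares for overTST. Every pair of symbols lies on the same side of 0, as the rule for naming the genes requires, and the squares are further from 0 for most lower genes, down to −1.48 for SLC6A14.

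The sizes of these shared decreases were uneven. SLC6A14, FREM1 and HUNK had the largest differences between the lines among the genes named for a shared change without overlap, at 0.77, 0.76 and 0.73 on the log2 scale (edgeR adjusted p = 5.3e-06, 5.4e-06 and 5.9e-05). HUNK did not pass in shTST alone (−0.30, edgeR adjusted p = 0.053). By contrast, the interval of shTST minus overTST stayed within −0.15 and 0.09 for LRP10, CIRBP and MARS1, and within −0.18 and 0.12 for SLC2A1.

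Of the genes called in opposite directions, AQP3, a channel for water and glycerol, was at 3.38, 5.16, 3.63 and 4.51 CPM in WT, at 2.97, 3.35, 2.35 and 2.52 in shTST and at 8.81, 8.05, 9.36 and 8.59 in overTST. It was low in shTST and high in overTST, so its pooled value of 0.22 (edgeR adjusted p = 0.16) hides a log2 fold change of −0.60 and 1.05. The lipocalin LCN15 stood at −0.54 and 0.98, and the secreted neuropeptide precursor VGF at −0.51 and 0.50. The shTST call of LCN15 (edgeR adjusted p = 0.048) was lost under 11 of 22 alternatives, up to 0.138.

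The shared genes differed from the rest in length. Higher genes had a median exonic length of 3248 bases and lower genes of 6903, against 4421 over all genes tested. Among 1051 genes of up to 1 kb, 9.42% were shared higher and 2.38% shared lower, and among 2601 genes of over 8 kb the shares were 6.38% and 31.0%. The median pooled log2 fold change went from 0.12 to −0.088 between these classes, in shTST from 0.059 to −0.020 and in overTST from 0.21 to −0.16. After a correction for this trend 1585 genes were shared higher and 1686 shared lower, and 2678 of the 3730 shared genes were kept in their direction (71.8%). Under it 53 of 76 ribosomal proteins and 34 of 75 respiratory chain genes were shared higher, and 14 of 26 amino acid transporters and 11 of 20 tRNA synthetases were shared lower. Protein-coding genes made up 88.2% of the shared higher and 96.8% of the shared lower genes, against 83.0% of all tested. What sets the length trend was not tested.

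**Figure D5:**
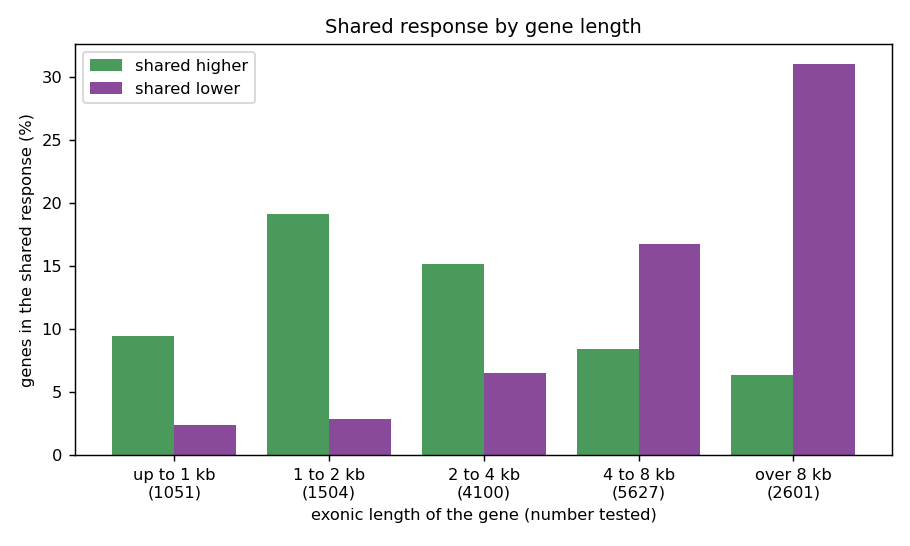
Share of the genes tested in each class of exonic length that were shared higher or shared lower (y axis, percent). The lower share climbs from 2.38% in genes of up to 1 kb to 31.0% in genes of over 8 kb, and the higher share is greatest, 19.1%, in genes of 1 to 2 kb.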

How the data were processed

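RNA of HepG2 cells was sequenced in 12 libraries, 4 each of WT, shTST and overTST. For each library the authors deposited raw counts of reads per gene (57500 Ensembl genes, not normalized), and the submitters' processing notes name Trimmomatic 0.36, STAR 2.5.2b, featureCounts of Subread 1.5.2 and GRCh38. The annotation release and the use of strand in counting are not given in the sources used here. Groups and replicate numbers came from the sample labels. The smallest library had 22911380 counts. Pairs of replicates differed by more than counting error (chi-square per gene 3.78 to 38.9 in 18 pairs), so all 12 libraries were kept. The range was 6.30 to 38.9 in WT, 4.69 to 8.90 in shTST and 3.78 to 10.5 in overTST. WT, the reference of every contrast with a line, thus had the most uneven replicates.

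All libraries were fitted together with edgeR 4.0.16 (filterByExpr, TMM, quasi-likelihood test) in R 4.3.3, with Benjamini-Hochberg adjustment over 14883 genes and a threshold of 0.05. The pooled contrast was the mean of shTST and overTST minus WT. SEs were taken as the size of the log2 fold change over the root of its F statistic, and the biological coefficient of variation was 6.02%. Marker sums and other single values were compared by exact permutation (two-sided), whose smallest p was 0.00404 for 8 libraries against 4 and 0.0286 for 4 against 4. The genes and gene lists were chosen with earlier results of these data known. Named genes were TST and the 5 given genes, the 14 largest changes in each direction without overlap between the engineered and WT libraries and with a mean log2 CPM of at least 1, the 2 shared members of each list with the smallest p, and 3 genes each with opposite and with uneven changes. Other members are named as seen afterwards. No set test was run.

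The alternatives were DESeq2 1.42.0, limma-voom (limma 3.58.1, robust), normalization by RLE or by the upper quartile, all genes unfiltered, only genes above 1 CPM in 4 or more libraries, fits without the mitochondrially encoded genes, a block for the replicate number, a lowess correction for exonic length (span 0.3) with and without the block, separate fits per line, and leaving out each library. The procedure was tested on simulated data with known changes. Promoters came from RefSeq (GRCh38.p14). Figures were drawn with matplotlib 3.10.9.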

Additional observations from a re-analysis of the deposited data

Results flagged for a closer look

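Of the 80 named genes, 46 differed between the lines in the test of shTST minus overTST (edgeR adjusted p of 0.0308 or less for each). The lines were made to differ in TST, and the genes with opposite or uneven changes were named for such a difference, so this count is not set against that of all genes. For 16 of them shTST was the lower line, with log2 differences for AQP3 (−1.64), LCN15 (−1.53), VGF (−1.02), TST (−0.76), GOT1 (−0.40), AL035071.1 (−0.39), ASNS (−0.36), MT-TN (−0.36), RPL11 (−0.29), RPL23 (−0.27), TXN (−0.25), NOP58 (−0.24), ORM2 (−0.19), LYZ (−0.19), UQCRB (−0.18), NQO1 (−0.14). For 30 of them overTST was the lower line, with log2 differences for MYC (0.21), TRIM25 (0.21), PARP2 (0.22), CEMIP (0.23), NFKB1 (0.24), ALB (0.26), SEC24D (0.26), PARP4 (0.26), HEATR1 (0.28), IARS1 (0.29), UHRF1 (0.29), ISM1 (0.35), ADAR (0.36), APOB (0.36), MKI67 (0.38), ITPR1 (0.43), LRP1 (0.45), ECT2 (0.46), SEL1L (0.48), SIRPA (0.51), SHPRH (0.51), HEPACAM (0.52), CYP51A1 (0.53), HSPG2 (0.56), ROR1 (0.66), TRIM2 (0.67), HUNK (0.73), FREM1 (0.76), SLC6A14 (0.77), FRAS1 (0.77). Both lists hold genes that are shared in direction and uneven in size, apart from TST, AQP3, LCN15 and VGF, whose lines lay on opposite sides of WT. The cause of the unevenness was not tested.

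In 240 groups of 4 libraries (80 named genes in 3 groups), 13 had 1 library far from the other 3, and chance alone flags about 1 in 20 groups. Among WT libraries this was CEMIP in replicate 2 (64.5 CPM, the others 51.4 to 53). Among shTST libraries the high values were TST (36.6 CPM in replicate 3, the others 33.0 to 33.6), KNG1 (7.97 in replicate 3) and FRAS1 (100.3 in replicate 4). The low values were PLA2G2A (5.62 CPM in replicate 1), SEC24D (43.5 in replicate 3) and ABCC2 (78.1 in replicate 3). Among overTST libraries the high values were NPIPB3 (4.36 CPM in replicate 4, the others 2.80 to 2.88) and HEATR1 (78.3 in replicate 1). The low values were PDGFRB (14.7 CPM), UQCRB (112 CPM) and ORM2 (112 CPM), all in replicate 1, and SLC2A1 (609 CPM in replicate 4, the others 681 to 686).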

How the results depend on the processing

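The shared counts stayed within 1.5 times of 1647 higher and 2083 lower under all 22 alternatives run, with 66.5% (without WT replicate 2) to 99.2% (RLE) of the 3730 genes kept in their direction. Leaving out 1 library gave 1109 (without WT replicate 2) to 1747 (without overTST replicate 1) shared higher and 1497 to 2208 shared lower genes, and 1411 to 2027 that differ between the lines. The replicate number as a block gave 1735 higher and 2211 lower. Correlations of same-numbered libraries were −0.053 to 0.080, and 6 of 12 libraries correlated best with their own number. These values do not settle whether the numbers pair the samples. The block moved the count of genes called in each line with opposite signs from 101 to 178, and with the length correction to 162. Single libraries moved it between 50 (without WT replicate 4) and 190 (without overTST replicate 1), with 63 without WT replicate 1, 61 without WT replicate 3, 52 without shTST replicate 1 and 57 without shTST replicate 4. Genes called in each line with the same sign ranged from 298 to 517 higher and from 382 to 661 lower with a library left out. At 1.5-fold the 126 higher genes became 81 with DESeq2 and 61 with the filter of more than 1 CPM, which left 67 of the 102 lower ones, and with a library left out they ranged from 105 to 137 higher and 59 to 133 lower. The pooled value of TST lost its call with upper-quartile normalization (−0.12), without mitochondrially encoded genes (−0.13) and when any of 9 libraries was left out (over all 12 it ranged from −0.16 to −0.10), and that of overTST alone with the length correction (0.095, and 0.093 with the block). Of 76 named genes with a pooled call, TST apart, 72 kept call and direction under all alternatives run on them, LYZ, NQO1, ALB and CDH5 lost the call under at least 1, and 0 reversed. List counts of a few genes moved most, as with hepatocyte markers (5 higher, 0 to 5 over the alternatives) and mitosis (6 higher, 1 to 8). The causes of these shifts were not tested.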
